A study of Mus musculus with 2 samples.

Results

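The genes described here encode heat shock proteins, their cochaperones and the chaperonin TRiC. The list holds 38 gene symbols, and its members were taken from the gene and transcript tables by symbol and Ensembl gene identifier, with no use of their values. Of the 38, 37 matched a gene among the 43346 mouse genes of the tables. Hspa14, an HSP70 relative, matched no identifier and is not analysed here. The 37 genes own 157 of the 103639 listed transcripts. The cells are G1E-ER4, an immortalised male mouse erythroid line that lacks endogenous Gata1 function and carries GATA1 fused to an estrogen receptor domain, so that estradiol activates it. All received 17beta-estradiol at 10 nM for 3 h, and polyadenylated RNA was sequenced in paired ends. There are 2 libraries, numbered as biological replicates 1 and 2, and both cite the same cell sample, so their spread may be only technical. Cells without estradiol were not analysed here, so every value below is a level after estradiol and none is a response to it. With 2 libraries of 1 group no test between conditions was possible, and none was made. Most members act in the cytosol, but Hspa9, Hspd1 and Hspe1 encode chaperones of the mitochondrial matrix and go against the description of the set as cytosolic.

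Heat shock proteins bind unfolded segments of other proteins and keep them from aggregating. HSP70 takes newly made or damaged chains from J-domain proteins, which stimulate its ATPase, and releases them when nucleotide exchange factors such as BAG and HSP110 proteins act. HSP90 receives part-folded clients from HSP70 through the adaptor Stip1, and TRiC, a ring of unlike subunits, folds actin and tubulin inside its chamber. In human red cell precursors HSP70 is known for protecting GATA1 from cleavage.

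Chaperone transcripts were abundant in both libraries. Of the 37 genes, 33 reached 1 TPM in both, a level reached by 20.2% of all genes and by 38.6% of protein-coding genes. TPM is an abundance divided by transcript length and scaled to the same total in each library. Values given in pairs are those of replicate 1 and replicate 2 in that order. The median gene of the set had 105 TPM in replicate 1 and 95.9 in replicate 2, against medians of 17.9 and 17.2 TPM over the 9269 genes that averaged 1 TPM or more, called expressed genes below. The set as a whole took 0.792% of all TPM in replicate 1 and 0.675% in replicate 2, a mean of 0.734% ± 0.083 (SD, n = 2). The RNA was taken from cells in bulk, so fewer cells of a type and less RNA per cell cannot be told apart. Hspb1, Hspa1a, Hspa1b and Hsf2 had means under 1 TPM, and 17 genes exceeded 100 TPM in both libraries.

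**Figure D1:**
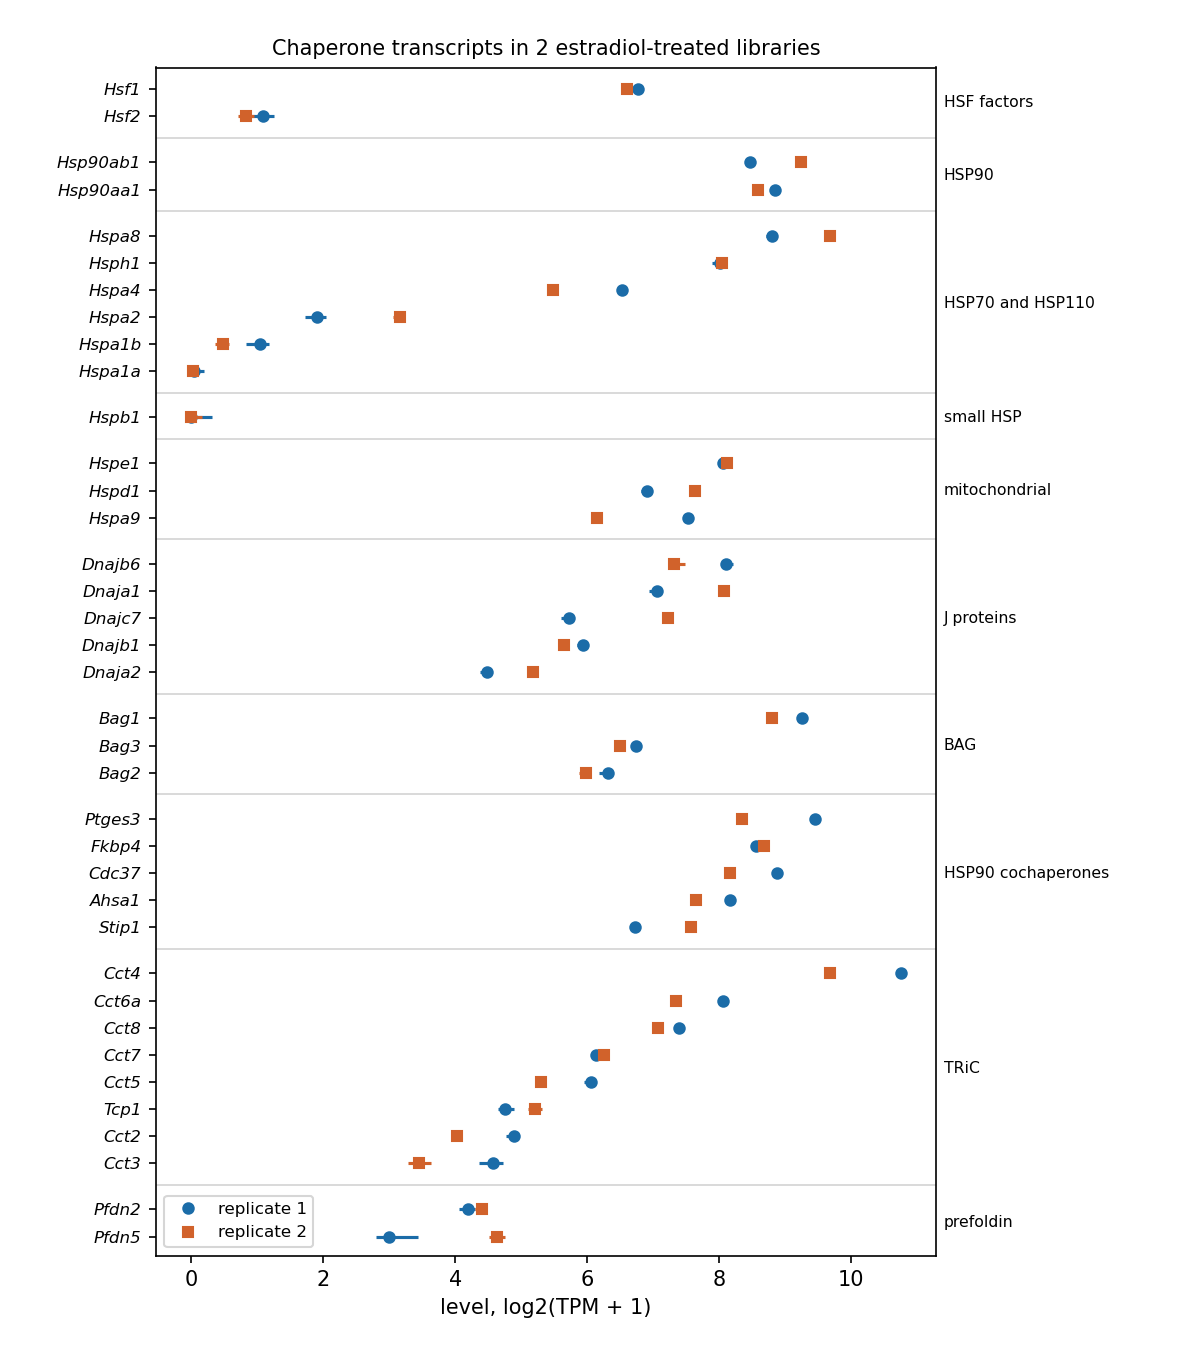
Level of each of the 37 genes on the log2(TPM + 1) axis, grouped by role, with circles for replicate 1 and squares for replicate 2. Lines are the interval bounds the authors deposited, which belong to their posterior mean estimates and whose level is not stated; the 2 points of a gene mostly lie farther apart than these lines reach.

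The heat shock factors differed widely from each other. Hsf1, the main activator of heat shock genes, was at 108 TPM in replicate 1 and 95.9 in replicate 2. Hsf2, a paralog with roles in development, was at 1.12 and 0.78 TPM, from 69 and 101 expected counts, which are estimated numbers of fragments. Hsf1 was thus the far more abundant of the pair in both libraries, with a log2 ratio to Hsf2 of 5.69 in replicate 1 and 5.77 in replicate 2 on the log2(TPM + 1) scale (mean 5.73 ± 0.06, SD, n = 2). The Hsf1 gene lies on chromosome 15, 76477422 to 76501913 on the plus strand, and Hsf2 on chromosome 10, 57486385 to 57513135 on the plus strand (GENCODE M21 on GRCm38). Each had a single listed transcript.

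HSF1 binds heat shock elements, arrays of the unit GAA and its reverse complement TTC spaced by any 2 bases. RefSeq promoter windows on GRCm38.p6, 250 bases before to 50 after a start site, were given for 32 of the 38 symbols, Hspa14 included, in 42 windows. Hsp90aa1, Hsp90ab1, Hspa8, Hspa9, Hsf1 and Cct4 had none and were not searched. A pair of units, GAANNTTC or TTCNNGAA, each of which reads the same on both strands, was in 16 of the 42 windows and at 14 of the 32 genes, or 43.8% of them, against 17.0% of all 27025 genes with windows. A row of 3 units, GAANNTTCNNGAA or TTCNNGAANNTTC, which holds overlapping pairs, was at Hsph1, Hspd1, Hspe1 and Dnajb6. These 4 genes are 12.5% of those with a window, against 0.662% of all genes. The genes are not independent of each other, since Hspd1 and Hspe1 point away from each other and share the same stretch, and the windows of Hspa1a and Hspa1b are identical at 296 of 300 bases.

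The windows printed here show these arrays at genes of contrasting gene-level TPM: Hspe1, Dnajb6 and Hsph1 at 159 TPM or more and Hspb1 and Hspa1b near 0. Each is printed 5′ to 3′ on the strand of its gene, up to 30 transcribed bases, with every pair of units in capitals.
Hspe1: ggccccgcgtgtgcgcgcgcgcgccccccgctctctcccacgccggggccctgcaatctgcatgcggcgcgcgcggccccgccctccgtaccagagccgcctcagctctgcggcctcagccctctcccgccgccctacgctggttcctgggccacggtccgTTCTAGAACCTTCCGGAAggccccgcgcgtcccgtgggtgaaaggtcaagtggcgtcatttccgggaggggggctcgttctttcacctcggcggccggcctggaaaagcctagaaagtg
Dnajb6: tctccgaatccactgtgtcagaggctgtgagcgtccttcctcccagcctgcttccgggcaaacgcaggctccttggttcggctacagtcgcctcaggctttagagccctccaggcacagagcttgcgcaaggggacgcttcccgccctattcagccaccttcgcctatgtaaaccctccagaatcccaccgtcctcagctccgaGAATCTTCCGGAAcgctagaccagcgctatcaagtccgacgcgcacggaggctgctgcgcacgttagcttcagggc
Hsph1: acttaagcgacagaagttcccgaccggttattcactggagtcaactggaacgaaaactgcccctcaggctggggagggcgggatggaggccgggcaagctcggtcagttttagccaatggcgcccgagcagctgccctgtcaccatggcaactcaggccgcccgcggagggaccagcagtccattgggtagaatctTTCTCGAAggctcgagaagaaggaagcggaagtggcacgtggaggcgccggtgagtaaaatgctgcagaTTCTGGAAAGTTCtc
Hspb1: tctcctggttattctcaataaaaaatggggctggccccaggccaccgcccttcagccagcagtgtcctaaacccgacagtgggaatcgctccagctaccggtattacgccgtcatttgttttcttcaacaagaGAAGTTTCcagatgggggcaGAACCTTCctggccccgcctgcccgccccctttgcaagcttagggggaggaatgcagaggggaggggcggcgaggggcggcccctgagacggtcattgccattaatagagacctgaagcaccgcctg
Hspa1b: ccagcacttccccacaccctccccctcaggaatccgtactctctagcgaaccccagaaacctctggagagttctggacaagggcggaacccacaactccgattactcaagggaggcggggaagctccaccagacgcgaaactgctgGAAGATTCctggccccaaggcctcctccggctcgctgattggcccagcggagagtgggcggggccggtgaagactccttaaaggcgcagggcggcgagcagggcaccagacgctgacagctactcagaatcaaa
The Hspe1 window is chr1:55087898-55088177 on the plus strand, and its 4 units run without a break from base -89 to base -72, where 0 is the first transcribed base. The Dnajb6 window is chr5:29735648-29735927 on the plus strand and holds 3 units in a row at -46 to -34. The Hsph1 window is chr5:149636286-149636565 on the minus strand, with a pair at -54 and 3 units in a row past the start site, at 15 to 27. The Hspb1 window is chr5:135887669-135887948 on the plus strand, with separate pairs at -117 and -97. The Hspa1b window is chr17:34959209-34959488 on the minus strand, with 1 pair at -104. The 3 genes whose arrays hold 3 or more units here were between 159 and 277 TPM at gene level, and the genes with isolated pairs, Hspb1 and Hspa1b, were at 0 to 1.05 TPM. Most of the Hsph1 level lay on a transcript of 416 bases, and its longer transcripts summed to 28.5 and 12.5 TPM. Most of the Dnajb6 level lay on Dnajb6-206, at 197 and 104 TPM. Its first exon starts at base 28787 of the gene, far past the printed window. Dnajb6-202 and Dnajb6-201, which start at bases 307 and 0, were at 66.5 and 42.6 TPM and at 4.07 and 9.95 TPM. Isolated pairs were not limited to genes near 0, since Cdc37 at 466 and 284 TPM and Fkbp4 at 377 and 407 TPM had 1 pair each. Bag3, Cct2, Cct5, Cct6a and Dnaja1 also held a pair without 3 units in a row, and all were at 15.3 TPM or more in both libraries. Hspa1a, with 1 pair, was near 0 like Hspb1 and Hspa1b. The printed windows were chosen for their contrast in level. Dnajb1, a heat-inducible gene at 60.2 and 48.9 TPM, had no pair in either of its windows. A match is a run of letters, and none of these data measure HSF1 binding.

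**Figure D2:**
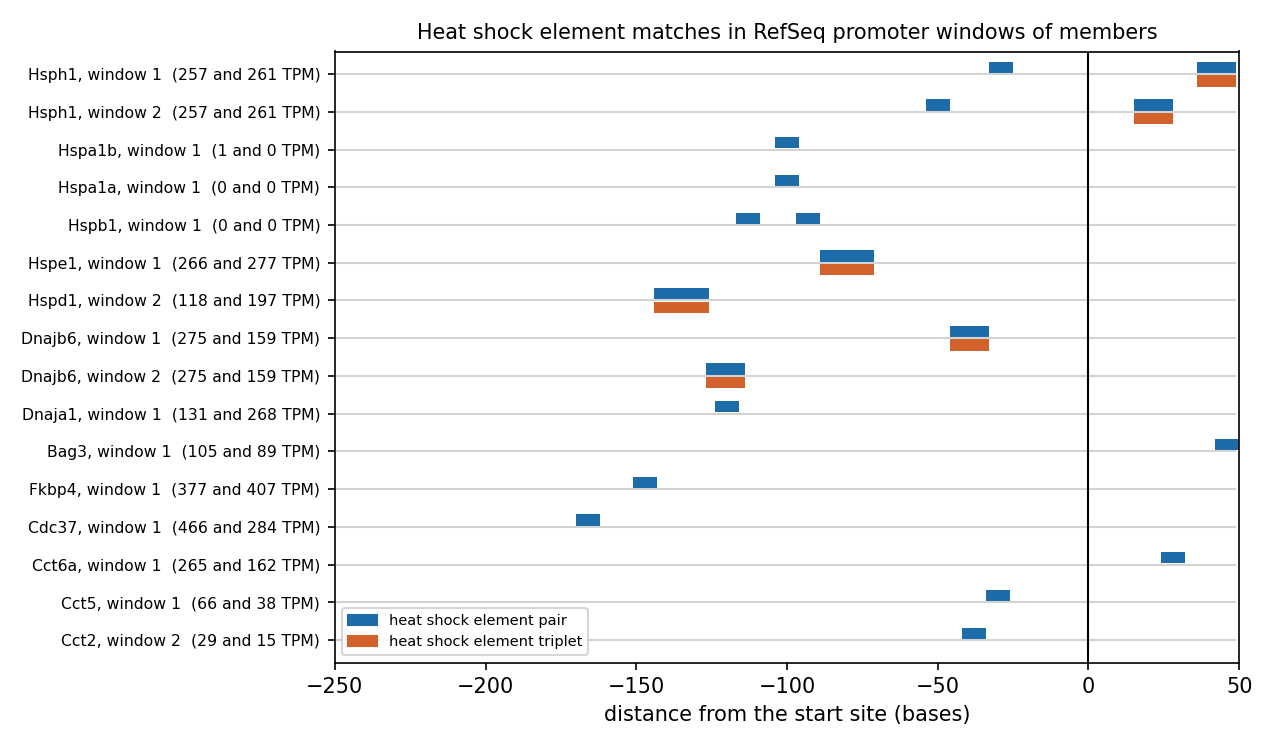
Position of heat shock element pairs (blue) and rows of 3 units (orange) in the 16 windows that hold any, as distance in bases from the start site, with the TPM of the gene in replicates 1 and 2 beside its name. The rows of 3 units lie at Hsph1, Hspe1, Hspd1 and Dnajb6, and none of the 4 was under 118 TPM at gene level in either library.

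For comparison, a CCAAT box (CCAAT or ATTGG) was at 17 of the 32 genes, or 53.1%, against 41.1% of all genes. A TATA box (TATAAA or TTTATA) was at 1, Stip1, which is 3.12% of them, against 15.7% of all genes. These shares describe the letters in the windows and carry no test.

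The cytosolic HSP90 genes were both among the most abundant of the set, and which of them led depended on the library. Hsp90ab1, the isoform made without stress in most cells, was at 353 TPM in replicate 1 and 604 in replicate 2. Hsp90aa1, the heat-inducible isoform, was at 459 and 384 TPM. The log2 ratio of Hsp90ab1 to Hsp90aa1 was -0.38 in replicate 1 and 0.65 in replicate 2, so the order at gene level changed with the library. Expected counts, which are not divided by length, gave another picture, with 14272 and 71768 for Hsp90ab1 and 7495 and 11633 for Hsp90aa1. Hsp90ab1 was ahead in both libraries on that scale. It was also ahead on transcripts of at least 1000 bases, with 210 and 570 TPM against 50.5 and 33.4 for Hsp90aa1, a mean log2 ratio of 3.04 in place of 0.14. The transcripts behind this are taken up with the isoforms further on.

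Among HSP70 genes the constitutive one dominated. Hspa8, which encodes HSC70 and lies on chromosome 9, 40800984 to 40810087 on the plus strand, was at 442 TPM in replicate 1 and 822 in replicate 2 (mean 632 ± 268, SD, n = 2), the sixth and the first of the 37. Hspa1a and Hspa1b, the classic inducible HSP70 genes, were at 0.03 and 0.02 TPM and at 1.05 and 0.39 TPM. Hspa8 exceeded the sum of the inducible pair by a log2 ratio of 7.74 in replicate 1 and 9.19 in replicate 2. Hspa1a held 2.27 and 2.38 expected counts, and it shares 61.7% of its 75-base stretches with other genes, mostly Hspa1b, so the split between them is uncertain. Hspa8 itself shares 79.0% of such stretches with other genes, chiefly the gene Gm15459, which was listed at 36.0 and 82.8 TPM. Hspa2, an HSP70 best known from testis, was at 2.74 and 7.91 TPM.

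The HSP110 proteins are nucleotide exchange factors of HSP70. Hsph1, the heat-inducible one, was at 257 TPM in replicate 1 and 261 in replicate 2, among the closest values of the set. Hspa4 was at 90.9 and 43.4 TPM, below Hsph1 in both libraries. That order does not hold without division by length: Hspa4 had 9713 and 10073 expected counts, and Hsph1 had 3702 and 5415. Hspb1, the small heat shock protein HSP25, had no count in either library, and 3 counts would have given 0.155 TPM in replicate 1 and 0.0749 in replicate 2. Its pseudogene Hsp25-ps1, which shares 405 of 856 stretches of 75 bases with it, was also at 0.

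The 7 heat-inducible genes therefore fell into separate ranges at gene level. Hsp90aa1, Hsph1, Bag3 and Dnajb1 were between 48.9 and 459 TPM in every library, while Hspa1a, Hspa1b and Hspb1 never exceeded 1.05 TPM. Bag3, a stress-induced HSP70 exchange factor that links it to autophagy, was at 105 and 88.9 TPM, and Dnajb1, the J protein known as HSP40, at 60.2 and 48.9 TPM. At gene level none of these 4 differed 2-fold between the libraries, with log2 ratios of replicate 2 over replicate 1 from -0.29 to 0.03. On transcripts of at least 1000 bases the ratios were -1.13 for Hsph1, past 2-fold, and -0.58 for Hsp90aa1. Most of the Hsph1 and Hsp90aa1 level lay on transcripts shorter than that, and the longer ones of Hsph1 summed to 28.5 and 12.5 TPM. Of these longer ones, the coding Hsph1-201 was at 2.50 and 1.69 TPM, close to the range of the low genes.

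The mitochondrial members were all abundant. Hspa9, the matrix HSP70 also called mortalin, was at 182 TPM in replicate 1 and 69.5 in replicate 2. Hspd1 and Hspe1, which encode the HSP60 chamber and its HSP10 lid, were at 118 and 197 TPM and at 266 and 277 TPM. Hspe1 was above Hspd1 in both libraries per length, with log2 ratios of Hspd1 to Hspe1 of -1.16 and -0.49. In expected counts Hspd1 was ahead, with 5237 and 21869, against 4503 and 9845 for the shorter Hspe1. The genes start 112 bases into each other on opposite strands of chromosome 1, Hspe1 at 55088132 and Hspd1 at 55088243. Whether counting used strand is not given in the sources used here, so fragments from the 112 bases may be assigned to either.

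J proteins ranged from 21.3 to 275 TPM. Dnaja1, a cytosolic partner of HSC70, was at 131 TPM in replicate 1 and 268 in replicate 2, and its paralog Dnaja2 at 21.3 and 35.1 TPM. Dnajb6, which suppresses aggregation of polyglutamine proteins, was at 275 and 159 TPM. Dnajc7, which also contacts HSP90, was at 51.9 and 148 TPM. Dnaja1 led Dnaja2 by log2 ratios of 2.57 and 2.89, and Dnajb6 led Dnajb1 by 2.17 and 1.68. Both orders were the same in the 2 libraries, but their size rests on short transcripts. On transcripts of at least 1000 bases the mean log2 ratio of Dnaja1 to Dnaja2 was 1.03 in place of 2.73, and that of Dnajb6 to Dnajb1 was 0.24 in place of 1.92. In expected counts they were 1.73 and 0.61. Dnajb6 shares 59.6% of its stretches with other genes, chiefly Gm2541 at 9.92 and 23.9 TPM.

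Among BAG proteins, nucleotide exchange factors of HSP70, Bag1 was the highest of the 3 in both libraries. It was at 607 TPM in replicate 1 and 444 in replicate 2, with Bag2 at 78.5 and 61.9 TPM. Bag1 led Bag3 by log2 ratios of 2.52 and 2.31 (mean 2.41 ± 0.15, SD, n = 2), and by 1.34 on average in expected counts. Per length, Bag1, Bag2 and Bag3 had log2 ratios of replicate 2 over replicate 1 of -0.45, -0.34 and -0.24, none past 2-fold. With counts scaled by TMM, a factor that centres most genes, the ratios were -0.12, -0.01 and 0.10, so the sign of Bag3 turned.

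The HSP90 cochaperones were all abundant, each above 100 TPM in both libraries. Ptges3, which encodes p23 and holds HSP90 in its closed form, was at 696 TPM in replicate 1 and 324 in replicate 2. Cdc37, the adaptor for kinases, was at 466 and 284 TPM. Fkbp4, the immunophilin of steroid receptor complexes, was at 377 and 407 TPM. All 3 were at 284 TPM or more in both libraries. Ahsa1, the activator of the HSP90 ATPase, was at 285 and 200 TPM. Stip1, the HOP adaptor between HSP70 and HSP90, was at 105 and 189 TPM and was below Fkbp4 in both, with log2 ratios of Stip1 to Fkbp4 of -1.83 and -1.10.

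Transcripts of the TRiC subunits were far from equal. The complex contains its 8 kinds of subunit in equal numbers, and their levels per length differed 75.6-fold between highest and lowest in replicate 1 and 82.9-fold in replicate 2. Cct4, at chromosome 11, 22990519 to 23003780 on the plus strand, was at 1716 TPM in replicate 1 and 818 in replicate 2 (mean 1267 ± 635, SD, n = 2). It made up 72.7% and 63.5% of the summed TRiC level, and it was the first and second most abundant of the 37 genes. Cct6a at 265 and 162 TPM and Cct8 at 166 and 133 TPM came next by mean. Cct7 was at 69.4 and 75.5 TPM, and Cct5 at 65.6 and 38.3 TPM. The lowest subunits by mean were Tcp1, which encodes subunit 1, at 25.9 and 35.8 TPM, Cct2 at 28.6 and 15.3 TPM and Cct3 at 22.7 and 9.87 TPM. Without Cct4 the spread was 11.7-fold in replicate 1 and 16.4-fold in replicate 2, so it was not Cct4 alone that differed. The top of that spread was Cct6a in both libraries, whose only listed transcript is classed as a processed transcript and not as protein-coding. Prefoldin, which hands nascent actin and tubulin to TRiC, was represented by Pfdn2 at 17.3 and 20.1 TPM and Pfdn5 at 6.95 and 23.8 TPM. The order of this pair changed with the library, with log2 ratios of Pfdn5 to Pfdn2 of -1.21 and 0.23. The mean was -2.32 on transcripts of at least 1000 bases and -1.98 in expected counts.

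In the order of mean levels over the 37 genes, 12 of the 36 neighbouring pairs kept their order in both libraries, and 7 had ranges that did not touch. The coarse order was more stable than the order of neighbours. Over all 37 genes, 4 of them with a mean under 1 TPM, the Spearman correlation of the 2 libraries was 0.944. The Pearson correlation of log2(TPM + 1) was 0.959. Over all expressed genes, which leave out genes that low, they were 0.882 and 0.887, so the 2 sets were not filtered alike. These are correlations across genes, which are not independent replicates.

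Most of the TPM of several genes was assigned to short transcripts. Cct4 is the clearest case. Cct4-205, a transcript of 581 bases classed as a target of nonsense-mediated decay, was at 1466 TPM in replicate 1 and 509 in replicate 2, and Cct4-203, of 465 bases and the same class, at 192 and 296 TPM. The protein-coding transcripts of Cct4 made up 1.2% of its TPM in replicate 1 and 1.1% in replicate 2. The exons of Cct4-205 lie within bases 131 to 6577 of a gene 13262 bases long. On transcripts of at least 1000 bases, a length chosen after the shares were seen, Cct4 was at 55.7 and 11.0 TPM. The spread of the 8 TRiC genes was then 18.2-fold in replicate 1 and 24.5-fold in replicate 2, with the processed transcript of Cct6a at the top in both.

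Hsp90aa1 had the same pattern. Hsp90aa1-205, 487 bases long and classed as a retained intron, was 88.2% of the gene's TPM in replicate 1 and 90.6% in replicate 2. It held 47.0% and 52.4% of the gene's expected counts. The coding transcript Hsp90aa1-202, of 3281 bases, was at 50.5 and 33.4 TPM. Of the 75-base stretches of Hsp90aa1-205, 69.5% also occur in other genes, of which the main one, Gm12346, was at 0.18 and 0.16 TPM. The short transcript covers bases 8436 to 9068 of a gene of 12124, where the coding transcript also has exons, so a fragment there can belong to either.

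**Figure D3:**
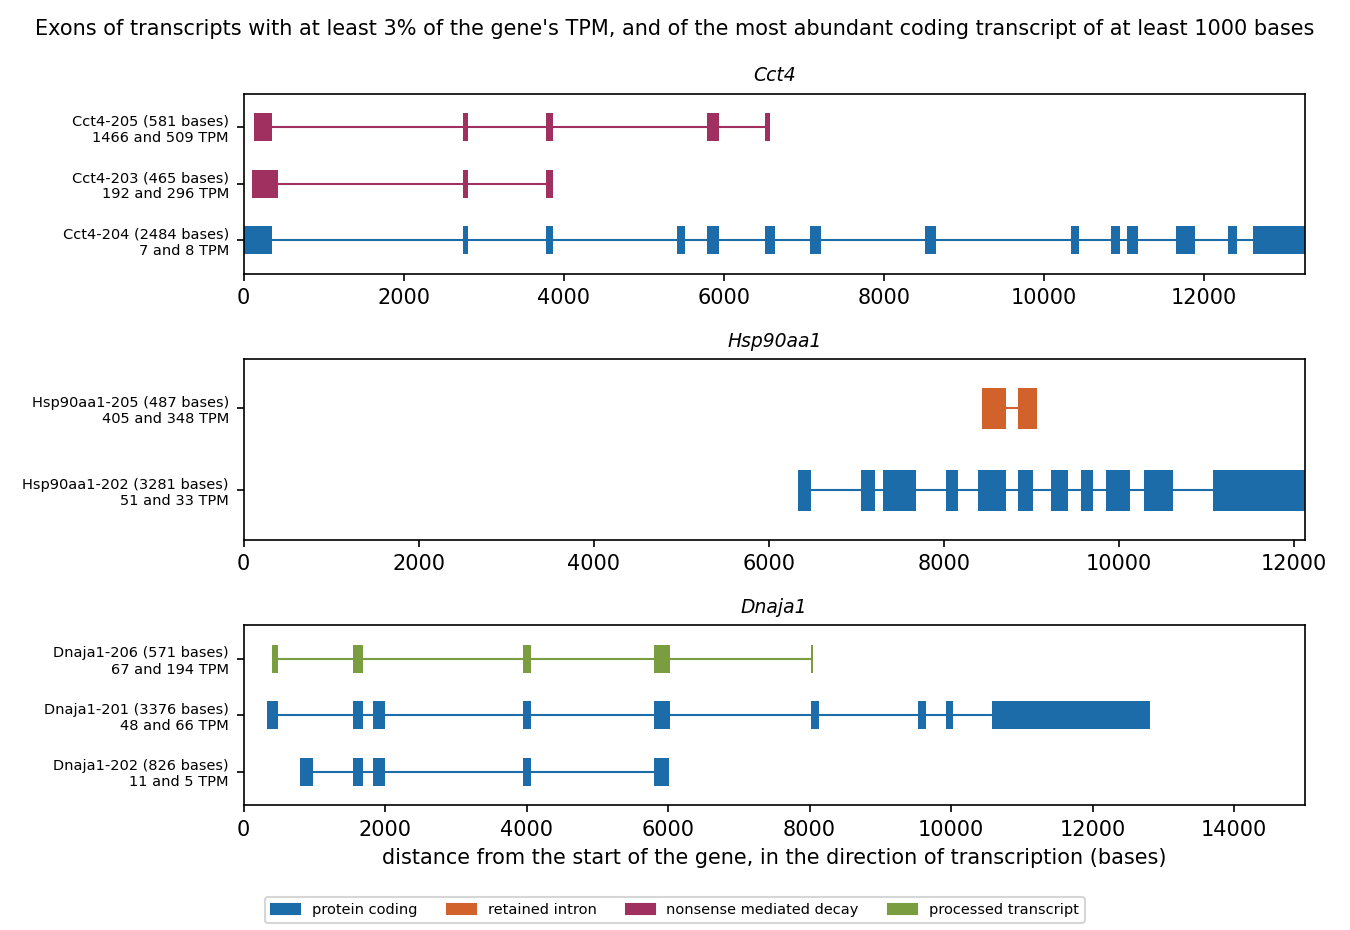
Exons (boxes) of Cct4, Hsp90aa1 and Dnaja1 transcripts against distance in bases from the start of the gene, coloured by annotated class, with length and TPM in replicates 1 and 2. The short transcripts at the top of each panel carry most of the TPM and lie within the span of the gene, as Cct4-205 does with 1466 and 509 TPM; the coding Cct4-204 had 7.16 and 8.37 TPM.

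A short transcript led at Hsph1 and Dnaja1 too. A transcript of 416 bases, absent from GENCODE M21 and so without a class here, held 88.9% of Hsph1 TPM in replicate 1 and 95.2% in replicate 2, and 42.7% and 63.6% of its expected counts. It was at 228 and 249 TPM, a transcript of 3054 bases that M21 also lacks was at 25.8 and 10.7 TPM, and the coding Hsph1-201, of 3802 bases, was at 2.50 and 1.69 TPM. Dnaja1-206, a processed transcript of 571 bases, held 50.9% and 72.3% of Dnaja1 TPM, and 14.7% and 27.0% of its expected counts. At Dnajb6 and Cct5 the leading short transcripts, of 847 and 845 bases, are classed as protein-coding, and Hspe1 encodes a small protein whose main transcript is itself 774 bases long. More than 50% of the TPM lay on transcripts under 1000 bases in both libraries at 9 of the 33 expressed genes, against 22.0% of expressed protein-coding genes. The 9 genes were Hsp90aa1, Hsph1, Hspe1, Dnaja1, Dnajb6, Dnajc7, Cct4, Cct5 and Pfdn5. In the deposited tables the effective length of a transcript was up to 136 bases below its length in replicate 1 and up to 152 in replicate 2, so a fragment on a short transcript weighs more in TPM.

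**Figure D4:**
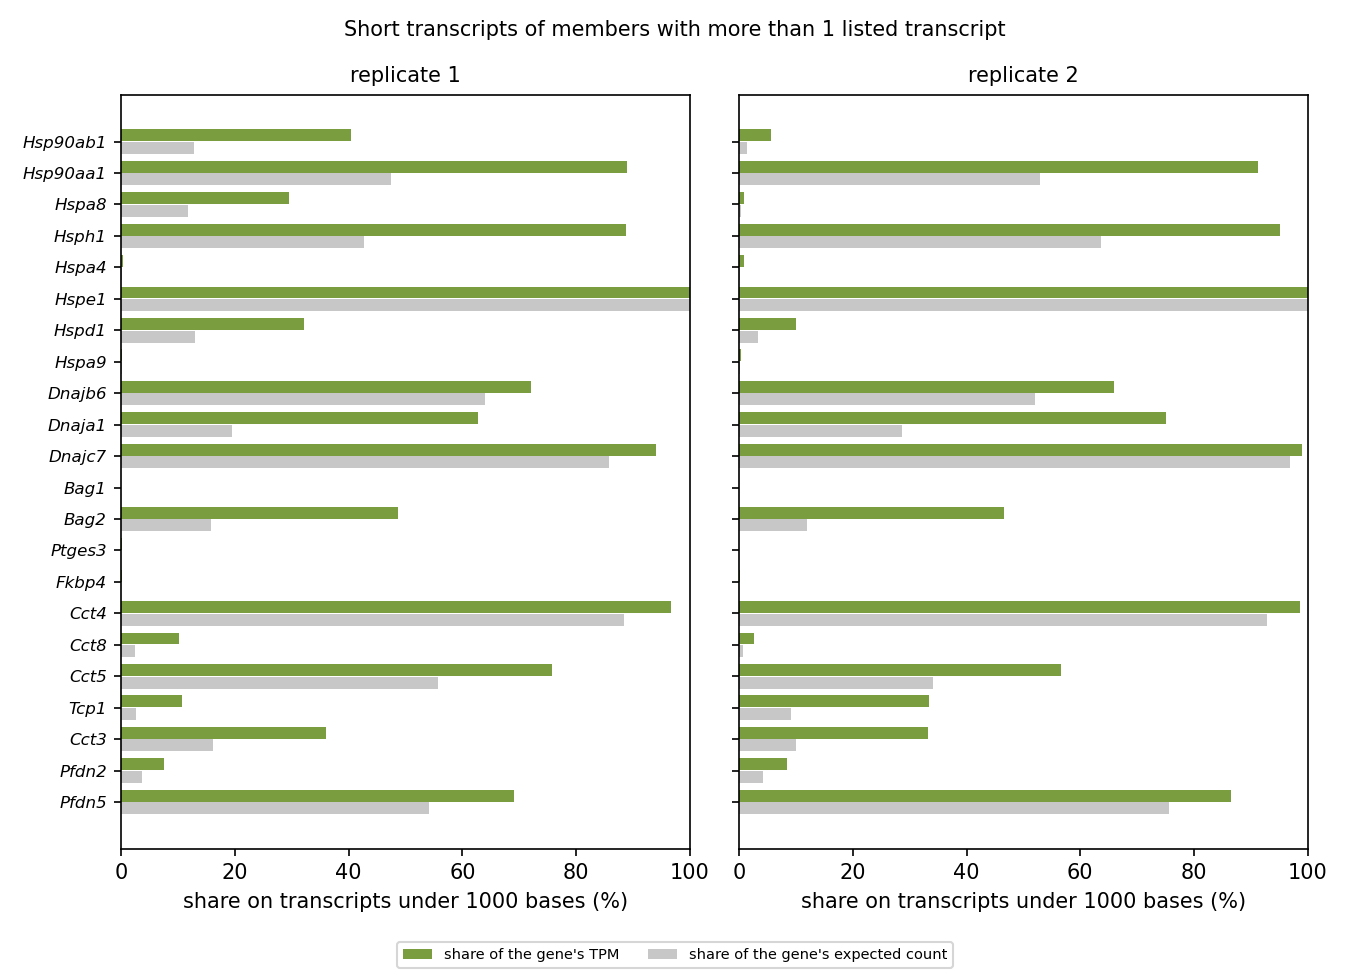
Share of each gene's TPM (green) and expected counts (grey) on transcripts under 1000 bases, in percent, for the 22 genes with several listed transcripts and signal, with replicate 1 on the left and replicate 2 on the right. The share of TPM exceeds the share of counts wherever both short and long transcripts were present, as at Hsp90aa1 and Hsph1.

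The leading transcript of most genes was the same in the 2 libraries. By TPM, of the 22 genes with several transcripts and signal, 20 had the same most abundant transcript in both and 2 did not, against 27.2% of all such genes that differed. The exceptions were Dnajc7 and Pfdn5. By expected counts, a ranking chosen after the shares were seen, 17 had the same leading transcript and 5 did not, against 24.7% of all such genes, and the others were Hsp90aa1, Hsph1 and Cct5. At Dnajc7, Dnajc7-203 led in replicate 1 with 70.7% and Dnajc7-204 in replicate 2 with 68.5%. At Pfdn5, Pfdn5-205 led in replicate 1 with 30.8% and Pfdn5-201 in replicate 2 with 76.1%. Some shares moved without a change of leader. Hsp90ab1-208, of 656 bases, held 40.2% of Hsp90ab1 TPM in replicate 1 and 0.0% in replicate 2, and Hspa8-209, of 727 bases, held 26.5% of Hspa8 TPM in replicate 1 and 0.0% in replicate 2. Cct6a was listed with a single transcript, of 1599 bases, classed as a processed transcript.

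Differences between the libraries were about as frequent among these genes as among expressed genes at large. A log2 ratio of replicate 2 over replicate 1 of at least 1, on the log2(TPM + 1) scale, was reached by 4 of the 33 expressed genes, against a background of 12.9%. A ratio of -1 or below was reached by 5, against 15.0%, and the background in either direction was 28.0%. The median log2 ratio was -0.24 over these genes and -0.28 over all expressed genes.

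Pfdn5 with a log2 ratio of 1.64, Dnajc7 with 1.49, Hspa2 with 1.25 and Dnaja1 with 1.02 were higher in replicate 2. Hspa9 with -1.38, Cct3 with -1.12, Ptges3 with -1.10, Cct4 with -1.07 and Hspa4 with -1.05 were higher in replicate 1. This split depends on the scaling. Of the genes past 2-fold, 44.4% were higher in replicate 2 with TPM, 85.7% with FPKM, a unit per length with no fixed sum, and 88.9% with counts scaled by TMM or by the median of ratios between libraries. TMM moved the median of all expressed genes from -0.28 to 0.06, and it put 8 genes of the set higher in replicate 2, against 19.1% of expressed genes, and 1 higher in replicate 1, against 6.60%. With FPKM the counts were 6 and 1, against 15.2% and 9.43%. Hspa2, higher in replicate 2, and Hspa9, higher in replicate 1, were past 2-fold under each of the 8 settings of scaling, filter, pseudocount and transcript length tried at this threshold. On transcripts of at least 1000 bases alone, Dnajc7 turned to -0.68, and Pfdn5 with 0.42 and Dnaja1 with 0.43 came inside 2-fold. Dnajc7 then had 3.09 and 1.56 TPM left and Pfdn5 2.14 and 3.19 TPM, low levels at which the pseudocount understates ratios. On that scale Hsp90ab1 with 1.43, Hspa8 with 1.38, Hspd1 with 1.13 and Hsph1 with -1.13 passed it, which gave 4 genes higher in replicate 2 and 6 in replicate 1, against 11.3% and 12.7% of the genes expressed on that scale.

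**Figure D5:**
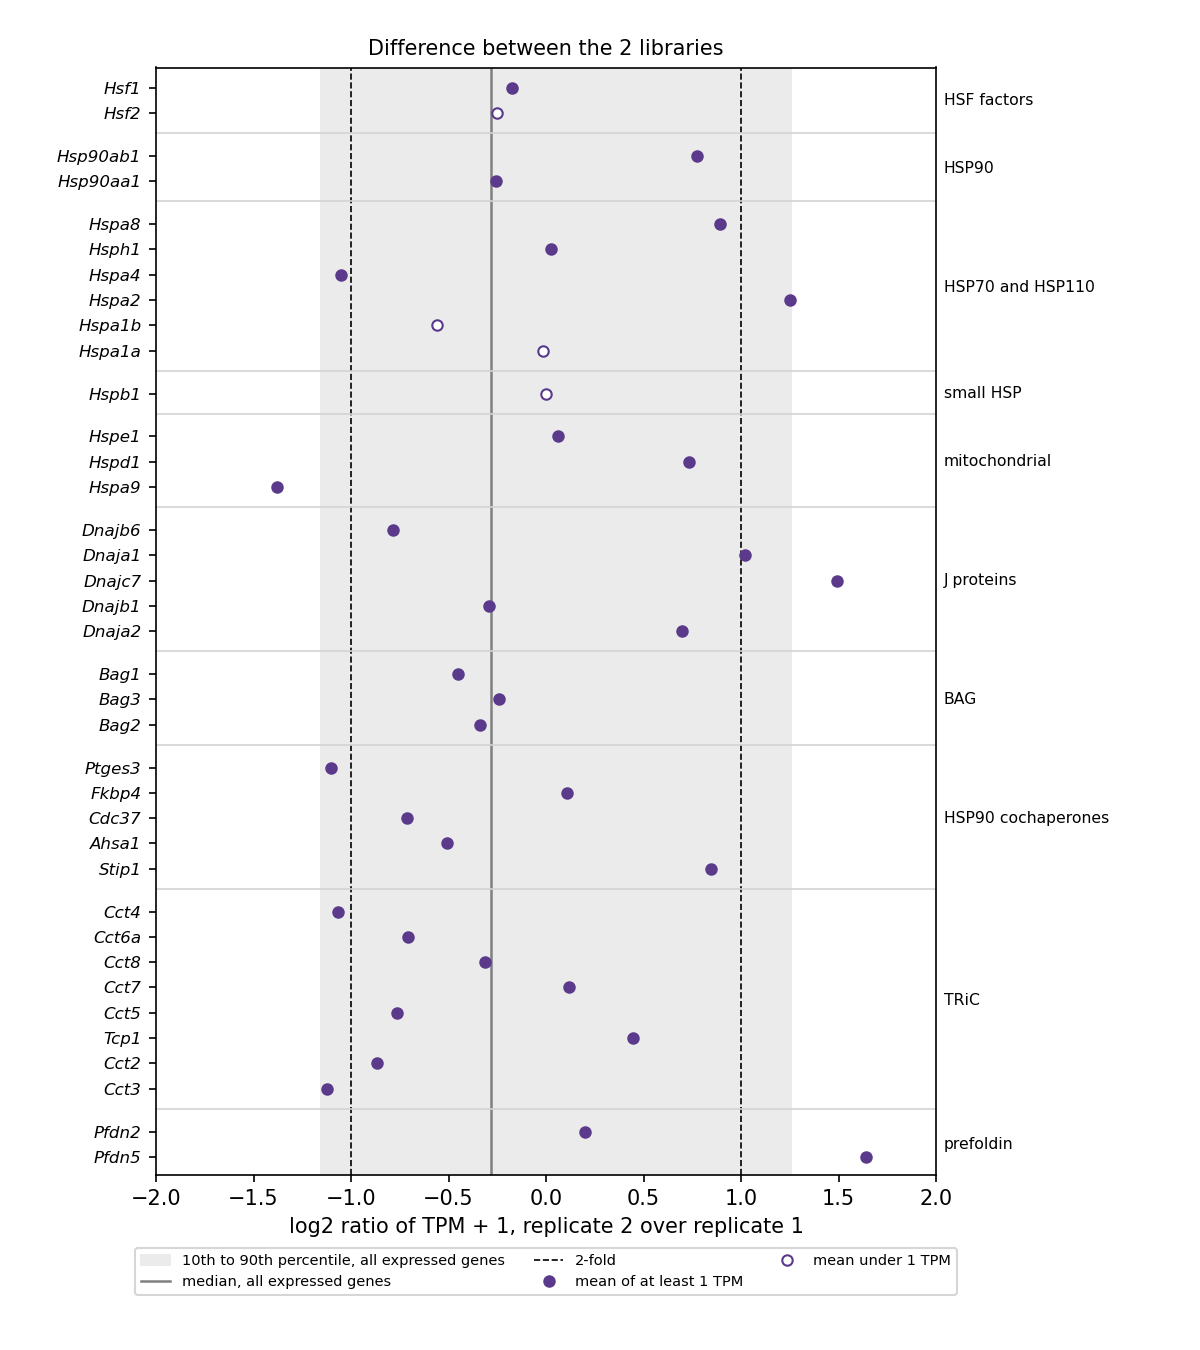
Log2 ratio of TPM + 1, replicate 2 over replicate 1, for each gene by role, with filled points for expressed genes. Dashed lines mark 2-fold, the grey line the median of all expressed genes at -0.28 and the band their 10th to 90th percentile, from -1.15 to 1.25; most genes lie inside the band, and Hspa9, Dnajc7 and Pfdn5 lie outside it.

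By role, TRiC genes had a median log2 ratio of -0.74 and HSP90 cochaperones of -0.51. J proteins had a median of 0.70 and the HSP70 and HSP110 genes of 0.46. With counts scaled by TMM the 4 medians were -0.27, -0.17, 0.96 and 0.69 in the same order. On transcripts of at least 1000 bases the medians were -0.45, -0.51, -0.29 and 0.10, so the sign of the J proteins turned. The summed TRiC level was 2360 TPM in replicate 1 and 1287 in replicate 2, and the summed HSP70 and HSP110 level 793 and 1135 TPM. Other genes moved between the same libraries. The 8 erythroid marker genes were all at 1 TPM or more in both, and their sum was 4592 TPM in replicate 1 and 18810 in replicate 2. Hba-a1 was at 149 and 6606 TPM, Hbb-bs at 863 and 9484 TPM and Gata1 at 190 and 799 TPM. The cells carry GATA1 fused to an estrogen receptor domain, and whether the Gata1 fragments came from that fusion was not tested. Markers of granulocytes and monocytes, lymphocytes and fibroblasts were all under 1 TPM in both libraries (0 of 5, 0 of 4 and 0 of 4 genes reached it), and of the 3 megakaryocyte markers Itga2b was at 11.6 and 13.6 TPM. Replicate 1 was sequenced to 31126956 expected counts and replicate 2 to 57853617. The part of the erythroid difference or of depth in the ratios above was not tested.

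Other cytosolic cochaperones were also widely present. All 16 listed genes reached 1 TPM in both libraries, against 20.2% of all genes. Of the 16, 2 were 2-fold higher in replicate 2 and 3 in replicate 1, against 12.9% and 15.0% of expressed genes. By the mean of the libraries the highest were Bag6, which guards newly made membrane proteins, at 998 TPM in replicate 1 and 662 in replicate 2, Hspbp1, an HSP70 exchange factor, at 512 and 231 TPM, and St13, the HSP70-interacting protein HIP, at 187 and 518 TPM. The lowest by mean was Cdc37l1 at 3.74 and 1.48 TPM. Of 8 other prefoldin subunits and TRiC helpers, 7 reached 1 TPM in both. By mean the highest were Pfdn6 at 580 and 457 TPM, Pfdn1 at 129 and 216 TPM and Pdcl3 at 97.3 and 66.7 TPM, and the lowest was Cct6b, a testis paralog of Cct6a, at 0.42 and 0.26 TPM. In this list 1 gene was 2-fold higher in replicate 2 and none in replicate 1, against the same 12.9% and 15.0%. Pfdn2 and Pfdn5 lay below Pfdn1 and Pfdn6 in both libraries. Pfdn2 lay above the other 2 prefoldin subunits, Pfdn4 at 9.89 and 5.88 TPM and Vbp1 at 2.68 and 4.90 TPM, in both. Pfdn5 lay above Vbp1 in both and above Pfdn4 in replicate 2 alone.

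Chaperones of other compartments give a scale for the cytosolic ones. All 12 endoplasmic reticulum chaperones reached 1 TPM in both libraries, led by mean by Pdia3 at 1282 TPM in replicate 1 and 471 in replicate 2, Calr at 382 and 218 TPM and Hspa5 at 162 and 146 TPM, and the lowest by mean was Pdia4 at 3.10 and 4.36 TPM. Over all genes, 20.2% reached 1 TPM in both. The lead of Pdia3 does not hold without division by length. In expected counts it had 11122 and 10114, against 15927 and 22888 for Calr. In this list 1 gene was 2-fold higher in replicate 2 and 4 in replicate 1, against 12.9% and 15.0% of expressed genes. Hspa8 exceeded Hspa5, the reticulum HSP70, by log2 ratios of 1.44 and 2.48, and Hsp90ab1 exceeded Hsp90b1, the reticulum HSP90, by 2.61 and 4.06. Hspa8 exceeded the mitochondrial Hspa9 by 1.27 and 3.54. The cytosolic paralog was the higher in both libraries in each of these 3 pairs. All 6 mitochondrial partners reached 1 TPM in both, led by mean by Trap1, the mitochondrial HSP90, at 190 and 418 TPM, Dnaja3 at 74.9 and 34.6 TPM and Hscb at 40.6 and 54.3 TPM, and the lowest by mean was Grpel2 at 1.84 and 1.04 TPM. Of these 6, 2 were 2-fold higher in replicate 2 and 1 in replicate 1, against the same 12.9% and 15.0%. In expected counts Trap1, with 2728 and 13758, was ahead of Dnaja3, with 2807 and 3354, in replicate 2 alone. Among 13 heat shock proteins listed as tissue-restricted, 2 reached 1 TPM in both libraries. They were Hspb6 at 6.81 and 13.4 TPM and Hspa12b at 2.85 and 2.31 TPM. Hsf4 followed by mean at 1.06 and 0.33 TPM, and 6, Cryaa and Cryab among them, had no count in either library.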

How the data were processed

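Polyadenylated RNA of 2 libraries of estradiol-treated G1E-ER4 cells was analysed. The authors aligned reads to mm10 and used GENCODE M4, per the text deposited with the tables; no source used here names the aligner, the quantifier or the strand setting. The deposited expected counts are estimated fragments per gene or transcript. Per the file headers, the deposited TPM and FPKM values are scaled for effective length and for the size of the library. The authors' tables also give the percent of gene TPM per transcript, posterior means, and bounds of a signal interval for TPM whose level is not stated. The libraries held 31126956 and 57853617 expected counts. Intervals and the limit of 3 counts for a count of 0 cover counting error only.

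Members and lists were chosen with earlier results of these data known. Named are all members, members of the gene pairs, and the 3 highest genes and the lowest of each other list; Hsf4 is the third of its list, and Hspa14 was not matched. Cryaa, Cryab, the partner genes of shared sequence and the marker genes were named after their values were seen. Levels are means ± SD of 2 libraries. Ratios used a pseudocount of 1 TPM, which understates differences of low genes, and a filter at a mean of 1 TPM. With 1 library on each side no test was run. Counts were scaled with TMM in edgeR 4.0.16 (prior count 2) as an alternative. For each gene, the transcript with the most expected counts over both libraries was taken among those present in GENCODE M21. Its stretches of 75 bases were searched in all M21 transcripts. For Hsph1, Dnaja1 and Cct5 this was Hsph1-201, Dnaja1-201 and Cct5-201, not the short transcript that led by TPM. Promoter windows are RefSeq's. Symbols were found for 42462 of 43346 genes. Python 3.11.15, pandas 2.3.3 and R 4.3.3 were used.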

Additional observations from a re-analysis of the deposited data

How the results depend on the processing

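No paired analysis was possible because the samples form 1 group. Genes past 2-fold numbered 4 higher in replicate 2 and 5 higher in replicate 1; TMM gave 8 and 1 (backgrounds 19.1% and 6.60%), the median of ratios 8 and 1 (19.0% and 6.76%), FPKM 6 and 1 (15.2% and 9.43%), and a 1.5-fold threshold 9 and 10 (20.2% and 34.2%). Transcripts of at least 1000 bases gave 4 and 6 (11.3% and 12.7%), with Hsp90ab1, Hspa8, Hspd1 and Hsph1 entering and Pfdn5, Dnajc7 and Dnaja1 dropping out. A pseudocount of 0.1, no filter and posterior mean TPM each gave 4 and 5. The share of TPM, 0.734%, was 0.675% to 0.792% when leaving out 1 library in turn, 0.850% as a share of expected counts and 1.12% on transcripts of at least 1000 bases, a setting chosen after seeing the data. The TRiC spread, 79.3-fold on average, was 75.6 to 82.9 when leaving out 1 library in turn, 25.1 in expected counts, 21.4 on transcripts of at least 1000 bases and 14.0 without Cct4, both chosen after seeing the data. The order of 4 gene pairs changed. Leaving out 1 library in turn gave Hsp90ab1 over Hsp90aa1 -0.38 to 0.65 and Pfdn5 over Pfdn2 -1.21 to 0.23. Hspa4 over Hsph1 was 1.14 in expected counts and 1.67 on transcripts of at least 1000 bases, and Hspd1 over Hspe1 was 0.68 in expected counts, a unit that ignores length. The cause of the other moves was not tested. Of the 37 levels, 34 moved by less than 1 SD with posterior mean TPM. The levels of Hspa1a, Hspb1, Hspa1b and Hsf2 rest on at most 101 expected counts in a library.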

Other observations

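Several of these genes share exonic bases with a neighbour, and some of the neighbours differed between the libraries. Pfdn5 shares 165 bases on the same strand with Myg1, which was at 7.55 TPM in replicate 1 and 85.7 in replicate 2. Cct6a shares 452 bases on the opposite strand with Psph, at 1.87 and 18.8 TPM. Tcp1 shares 141 bases on the opposite strand with Mrpl18, at 42.0 and 115 TPM. Pfdn2 shares 535 bases, 27.6% of its exonic bases, on the opposite strand with Klhdc9, at 0.94 and 0.60 TPM. Gene counts were whole numbers, within 0.005, in both libraries for 28 of the 37 genes and fractional for 9, Hspa8, Hsp90aa1 and Hspd1 among them. Which fragments of the shared bases were assigned to which gene was not tested.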
